A study of Mus musculus with 4 samples.

Results

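The regions described here were promoters at which open chromatin was called in bone marrow-derived macrophages (BMDMs) of only 1 of 2 mouse genotypes. ATAC-seq, which maps accessible DNA by the insertions of the Tn5 transposase, had been performed on BMDMs with intact or Cre-deleted genes of the histone variant H3.3, with 2 biological replicates per genotype. WT mice carried the floxed alleles *H3f3a* fl/fl and *H3f3b* fl/fl without Cre, and *H3.3*cKO mice carried the same floxed alleles with *LysM* cre/cre, so that both groups shared the floxed alleles and differed in Cre. The mice were on a C57BL/6 background, were male and female and were 8-10 weeks old, and marrow cells were grown in L929-conditioned medium for 6-8 days. Cre under *LysM* control is active in macrophages and granulocytes, and the study described the deletion of *H3f3b* as variable between samples. Overlapping peaks of the 4 libraries (1 bp or more) were joined into merged regions, and an autosomal merged region was taken as a promoter when its centre lay from 1000 bp upstream to 100 bp downstream of an annotated transcription start site. Of 10410 such promoter regions among 69349 autosomal regions, 169 had a peak in both cKO libraries and in no WT library (gained), which was 1.62%. A further 253 had a peak in both WT libraries and in no cKO library (lost), which was 2.43%. Another 8801 were called in all 4 libraries, which was 84.5%. The 422 members were chosen by the presence and absence of peaks in these 4 libraries, so their calls and peak sizes are described below without a test.

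Promoters lie around the start sites of genes, and in active genes they are depleted of nucleosomes, which is what the transposase detects. Many promoters of broadly used genes overlap CpG islands and stay open in most cell types, whereas promoters of inducible and lineage genes are more often CpG-poor and open when bound by factors such as PU.1, C/EBP, AP-1 or interferon-activated STAT and IRF proteins. H3.3 is deposited outside replication at active promoters and gene bodies, and with ATRX and DAXX at repeats.

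The libraries held between 51955 and 64939 peaks, and in each genotype the list of replicate 2 was the longer, with 64939 peaks in WT and 60884 in cKO against 55742 and 51955 in replicate 1. The number of sequenced reads was not given by the files, so the depth was unknown. Promoters of 4 of 8 macrophage marker genes (*Adgre1*, *Itgam*, *Cd68* and *Mertk*) were called in all 4 libraries within the window, and a region over a start site was called in all 4 libraries for 7 of the 8, the exception being *Spi1*. The promoters of *H3f3a* and *H3f3b* were also called in all 4 libraries. Whether the deleted exon 2 of *H3f3a* lies under the peak of that gene was not determined, so the peak was no check of the deletion. The *H3f3b* promoter had percentiles of peak area of 23.7 and 34.3 in the WT libraries and 28.7 and 42.5 in the cKO libraries, although exons 1-4 of this gene are floxed, and whether the peak lies inside the floxed part was not determined.

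Stretches around the summits of strongly called members are shown so that their sequence can be compared with the values below. They are the 4 gained and 4 lost members with the largest peaks among those with at least 100 bp outside annotated UTRs in the 151 bp around the summit, on build mm10 (GRCm38, RefSeq sequence) and on the strand of the gene. *Oas1g*, an interferon-stimulated gene, and *Slc37a3*, whose region is largely repeat, were added after their values were seen. *Oas1g* was picked for its ISRE match and *Slc37a3* for its AP-1 match, by the words given next. Capitals mark a match to AP-1 (TGACTCA), CRE (TGACGTCA), PU.1 (GAGGAAGT), C/EBP (TTGCNNAA), ISRE (GAAA, any 2 bases, GAAA), RUNX (AACCACA), ETS (CCGGAAGT), GC box (GGGCGG) or TATA box (TATAAA) on either strand.
Oasl1 (gained), chr5:114923131-114923239, + strand: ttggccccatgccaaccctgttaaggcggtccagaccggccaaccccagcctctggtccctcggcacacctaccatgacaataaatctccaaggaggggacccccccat
Fbp2 (gained), chr13:62859409-62859559, - strand: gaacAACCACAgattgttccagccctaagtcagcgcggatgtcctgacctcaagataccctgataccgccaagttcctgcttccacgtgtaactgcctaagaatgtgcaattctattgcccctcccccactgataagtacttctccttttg
Gm4761 (gained), chr6:67415376-67415526, - strand: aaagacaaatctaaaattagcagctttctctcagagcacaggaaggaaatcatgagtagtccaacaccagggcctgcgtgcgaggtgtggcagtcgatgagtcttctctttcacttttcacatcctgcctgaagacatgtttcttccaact
Dmwd (gained), chr7:19076033-19076183, + strand: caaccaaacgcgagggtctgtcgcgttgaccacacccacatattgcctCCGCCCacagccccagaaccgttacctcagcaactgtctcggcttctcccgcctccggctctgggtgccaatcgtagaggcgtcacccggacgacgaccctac
Gm13920 (lost), chr2:102057284-102057434, + strand: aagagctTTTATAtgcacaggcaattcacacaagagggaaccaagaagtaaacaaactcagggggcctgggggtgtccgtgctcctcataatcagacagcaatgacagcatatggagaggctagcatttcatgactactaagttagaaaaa
Gprc5c (lost), chr11:114850956-114851106, + strand: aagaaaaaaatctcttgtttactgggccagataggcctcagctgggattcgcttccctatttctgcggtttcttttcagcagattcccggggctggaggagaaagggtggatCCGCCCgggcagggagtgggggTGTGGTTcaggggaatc
Hip1 (lost), chr5:135466031-135466181, - strand: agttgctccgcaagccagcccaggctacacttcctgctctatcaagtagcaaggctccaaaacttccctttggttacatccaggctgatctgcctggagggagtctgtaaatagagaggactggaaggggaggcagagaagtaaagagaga
AC166102.1 (lost), chr17:24779672-24779822, + strand: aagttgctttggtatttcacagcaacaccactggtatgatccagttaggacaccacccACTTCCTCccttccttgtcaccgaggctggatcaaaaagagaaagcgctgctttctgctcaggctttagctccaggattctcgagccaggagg
Oas1g (gained), chr5:120887621-120887771, - strand: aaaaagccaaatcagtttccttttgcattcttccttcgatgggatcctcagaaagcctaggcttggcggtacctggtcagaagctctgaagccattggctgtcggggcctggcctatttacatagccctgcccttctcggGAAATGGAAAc
Slc37a3 (gained), chr6:39378514-39378664, - strand: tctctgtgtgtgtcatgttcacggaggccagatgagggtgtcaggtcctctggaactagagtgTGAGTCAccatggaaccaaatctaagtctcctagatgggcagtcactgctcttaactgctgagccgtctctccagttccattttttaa
Among the gained sequences, *Fbp2* held a RUNX match and *Dmwd* a GC box, while *Oasl1* and *Gm4761* held none of these words in the stretch shown. The ISRE of *Oas1g* and the AP-1 match of *Slc37a3* are there by choice. Among the lost sequences, *Gm13920* held a TATA box, *Gprc5c* a RUNX match and a GC box, and *AC166102.1* a PU.1 match, while *Hip1* held none.

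The size of each peak was taken as its area, the statistic the peak caller summed over the peak, and was expressed as a percentile of all peaks of the same library. A percentile of 70 means that 70% of that library's peaks were no larger. The gained and lost promoters had small peaks in both genotypes: the mean percentile over the 2 calling libraries had a median of 19.3 in gained and 19.3 in lost promoters. Promoters called in all 4 libraries had median percentiles between 79.2 and 82.9 in the 4 libraries. Both peaks had a percentile above 50 in 9 of 169 gained and 8 of 253 lost promoters, and both had a percentile of 25 or less in 79 gained and 117 lost promoters. Members ranked similarly in the pair of libraries that called them, with Pearson correlations of 0.794 over the 169 gained and 0.803 over the 253 lost regions, as a description of regions that share the same libraries. Percentiles were higher in replicate 2, with medians of 26.9 against 14.4 in cKO for gained and 26.1 against 14.1 in WT for lost promoters, as the plot of percentiles shows.

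**Figure D1:**
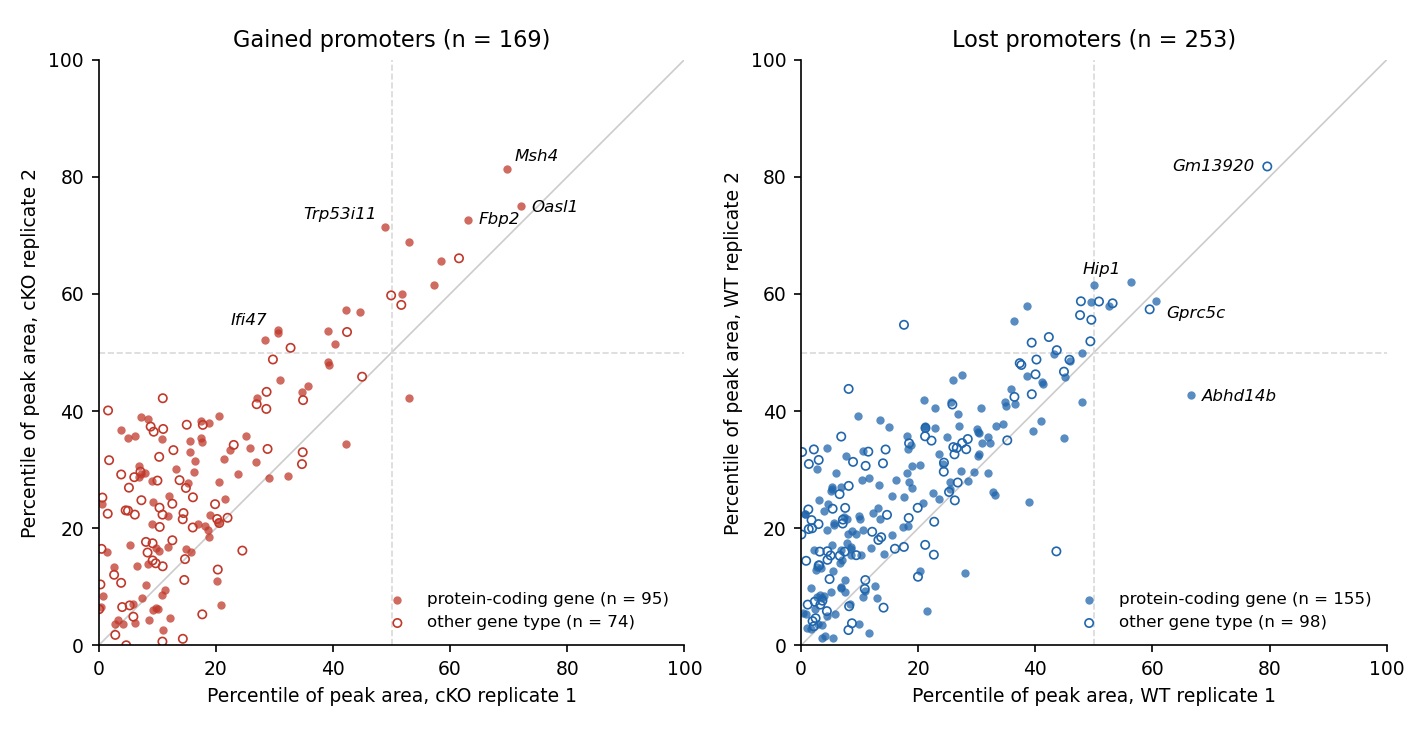
Percentile of the peak area in replicate 1 (horizontal) and replicate 2 (vertical) for each gained promoter in the cKO libraries (left) and each lost promoter in the WT libraries (right). Filled points are protein-coding genes (95 gained, 155 lost), open points are other gene types (74 gained, 98 lost), the grey line marks equal percentiles and dashed lines mark 50. Most points lie in the lower left, with 9 gained and 8 lost promoters above 50 in both replicates.

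The gained promoters with the largest peaks belonged mainly to protein-coding genes with varied functions. *Msh4*, which acts in meiotic recombination, had percentiles of 69.7 and 81.3 in cKO replicates 1 and 2 (chr3:153904453-153905643) and areas of 1047 and 1626, against a calling limit of 200. *Oasl1*, an interferon-stimulated gene that restrains IRF7 translation, had percentiles of 72.1 and 75.1 with a region centred 1 bp upstream of the start site (chr5:114922897-114923629). *Fbp2*, the muscle fructose-1,6-bisphosphatase, had percentiles of 63.1 and 72.7, and its region was centred 900 bp upstream. In the cKO lists these 3 peaks were larger than most peaks, and neither WT list held a peak there. The processed pseudogene *Gm4761* (61.5 and 66.1), *Dmwd*, a WD-repeat gene (58.4 and 65.6), and *Sema6a*, a transmembrane semaphorin (52.9 and 68.8), followed by rank. *Trp53i11*, a p53-induced gene, had percentiles of 48.8 and 71.4. *Tnfrsf22*, a decoy receptor for TRAIL, had percentiles of 57.3 and 61.6. The remaining 4 of the 12 highest were *Dpy19l3*, a C-mannosyltransferase (51.8 and 59.9), the antisense genes *Gm37634* (51.7 and 58.1) and *Gm36208* (49.9 and 59.8), and *Tmem40*, a transmembrane protein gene (44.6 and 57.0).

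The 12 lost promoters with the largest peaks included more genes without a protein product than the 12 such gained promoters. The antisense gene *Gm13920* had percentiles of 79.6 and 81.8 in WT replicates 1 and 2 (chr2:102056949-102057715) and areas of 1461 and 1675, the highest of all 422 members by mean percentile. *Gprc5c*, an orphan receptor gene, had percentiles of 60.6 and 58.7 (chr11:114850694-114851303). *Hip1*, which encodes an adaptor of clathrin-coated vesicles, had percentiles of 56.4 and 62.0 (chr5:135465863-135466293), and another promoter of *Hip1* was called in all 4 libraries. No other lost promoter came near the percentiles of *Gm13920* in both WT libraries. The others were the unconfirmed transcript *Gm49300* (59.5 and 57.4), the lincRNA *AC166102.1* (53.2 and 58.4), *Ccdc13*, a coiled-coil protein gene (50.03 and 61.5), and *Gpr162*, an orphan receptor gene (52.6 and 57.9). Then came the lincRNA *Gm28818* (50.9 and 58.7), *Abhd14b*, a hydrolase (66.6 and 42.8), *Sec13*, a component of COPII vesicles and the nuclear pore (49.6 and 58.6), the lincRNA *Gm49156* (47.8 and 58.8) and the unconfirmed transcript *Gm47596* (49.6 and 55.6). Of these 12 lost regions 6 belonged to genes that are not protein-coding, and of the 12 gained regions 3 did. Over all members the order was the reverse, with 61.3% of lost and 56.2% of gained promoters protein-coding, a difference that was not significant (given below).

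By gene type, the 74 gained promoters of other genes were 23 lincRNA, 15 antisense, 9 processed pseudogene, 5 processed transcript, 4 microRNA, 4 snoRNA, 4 unconfirmed transcript (TEC), 3 miscellaneous RNA, 3 unprocessed pseudogene, 2 bidirectional lncRNA, 1 sense intronic and 1 T cell receptor segment gene. The 98 lost promoters were 24 lincRNA, 15 antisense, 14 processed pseudogene, 14 TEC, 8 microRNA, 8 processed transcript, 4 snRNA, 3 snoRNA, 3 sense intronic and 2 bidirectional lncRNA genes, with 1 each of the scaRNA, transcribed processed pseudogene and unprocessed pseudogene types. Antisense genes made up 8.88% of gained, 5.93% of lost and 3.67% of common promoters, beside 4.27% of all promoter regions. For lincRNA genes the shares were 13.6%, 9.49% and 5.17%, beside 5.98% of all. Regions with other call patterns were not compared. Several genes fell in the window of 12 gained and 9 lost regions, so that 182 genes had a gained promoter (1.61% of 11287) and 259 a lost promoter (2.29%).

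The calls lay close to the calling limit for many members, and neighbouring call patterns were frequent. The smallest gained peaks were those of *Gm43181*, an unconfirmed transcript, with areas of 200.3 and 231 in the cKO replicates, and the lincRNA *Platr1*, with 221.2 and 200.1. The smallest lost peaks were those of the unconfirmed transcript *Gm44270* (200.3 and 318) and the processed pseudogene *Gm18829* (201 and 445). An area below 300 was found for 107 of 169 gained promoters in cKO replicate 1 and for 53 in cKO replicate 2. The corresponding counts of lost promoters were 135 of 253 in WT replicate 1 and 71 in WT replicate 2. Beside the gained promoters, 170 regions with peaks in both cKO lists had a WT peak in replicate 2 only, and 10 had it in replicate 1 only. Beside the lost promoters, 284 regions with peaks in both WT lists had a cKO peak in replicate 2 only, and 21 had it in replicate 1 only. A peak in a single library was found at 212 regions in cKO replicate 2, 20 in cKO replicate 1, 307 in WT replicate 2 and 8 in WT replicate 1. In each of these 4 pairs of counts the larger was that of replicate 2, which had the longer lists. When each list was cut to its 51955 peaks of largest area, 279 promoters were gained and 240 lost, so the larger number of lost promoters did not hold with lists of equal length. Of the members, 130 of 169 gained and 139 of 253 lost kept their call there. The list of cKO replicate 1 set the length and lost no peak, whereas both WT lists were shortened. These kept counts are thus not comparable between the directions.

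The number of promoter regions called per library did not separate the genotypes. It was 9386 and 9982 in WT replicates 1 and 2, and 9198 and 9794 in cKO replicates 1 and 2. The mean was 9684 ± 421 in WT and 9496 ± 421 in cKO (SD, n = 2 each), a difference of -188 (two-sided exact permutation test, p = 0.667, where 0.333 is the smallest p this design allows). The replicates of each genotype lay further apart than the genotypes did. In bulk samples, a peak missing from a list cannot be told apart as fewer cells with an open promoter or as less opening per cell.

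Gained and lost promoters were both less often promoters of protein-coding genes than the promoters called in all 4 libraries, of which 82.9% were. Over all 10410 promoter regions the share was 79.6%. The 1187 regions with other call patterns were not set beside the members, so the trait is not shown to be particular to gained and lost promoters. The nearest start site was that of a protein-coding gene in 95 of 169 gained (56.2%, 95% Wilson interval 48.7 to 63.5) and 155 of 253 lost promoters (61.3%, 55.1 to 67.1). The difference of -5.05 percentage points (95% Newcombe interval -14.6 to 4.45) was not significant (two-sided Fisher's exact test, adjusted p = 0.470, Benjamini-Hochberg over 3 shares). The regions, not mice, are the units of this test, so it describes these 4 libraries. A region around the start site was classed as CpG-rich when 500 bp had at least 50% GC and an observed to expected CpG ratio of at least 0.6, which held for 47 gained (27.8%, 21.6 to 35.0) and 77 lost promoters (30.4%, 25.1 to 36.4). These shares differed by -2.62 points (-11.2 to 6.33, adjusted p = 0.587 by the exact test), and 71.4% of promoters called in all 4 libraries were CpG-rich. Of the 3 shares tested, that of repeat-rich regions differed between gained and lost promoters: at least 50% of the bases were soft-masked as repeat in 17 of 169 gained (10.1%, 6.38 to 15.5) and 8 of 253 lost promoters (3.16%, 1.61 to 6.11). That difference of 6.90 points (2.18 to 12.6) passed Fisher's exact test (adjusted p = 0.0158), and the share was 0.591% in promoters called in all 4 libraries. By the same exact test it was no longer significant with lists of equal length (4.31 points, adjusted p = 0.0720), with the larger peaks of each list only (1.77 points, adjusted p = 0.184) or without WT replicate 2 (3.56 points, adjusted p = 0.261). With any soft-masked base as the criterion it was -0.739 points.

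**Figure D2:**
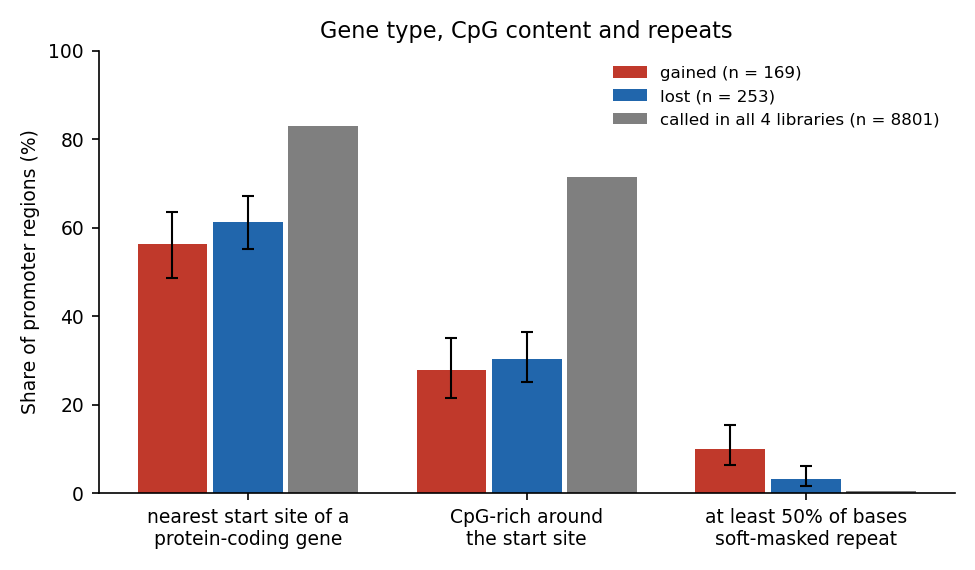
Share of gained (n = 169), lost (n = 253) and commonly called (n = 8801) promoter regions (vertical axis, %) whose nearest start site is of a protein-coding gene, that are CpG-rich, or that are at least 50% repeat. Bars are shares and lines are 95% Wilson intervals for the gained and lost regions, which overlap for gene type (56.2% and 61.3%) and CpG content (27.8% and 30.4%).

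The repeat-rich gained promoters included *Fbp2* (81.2% of bases masked), *C5ar2*, which encodes a receptor of the complement fragment C5a (59.3%), and *Slc37a3*, a solute carrier (94.1%). Of the repeat-rich gained regions only *Fbp2* was among the 12 with the largest peaks, and *C5ar2* had percentiles of 35.8 and 44.3 in the cKO replicates. *Tsga10*, a gene of sperm tails, was 95.6% masked with percentiles of 17.0 and 20.7, and the lincRNA *Gm47015* was 98.9% masked with 1.78 and 31.6. The 8 lost regions of this kind included *Sec13* (51.3%) and the snRNA gene *Gm22808* (83.6%, percentiles 22.7 and 21.1). *C5ar2*, *Slc37a3*, *Tsga10* and *Gm47015* were picked for their repeat content after the values were seen.

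Gained and lost regions were narrower than the commonly called promoters and more often lay off the start site. Regions with other call patterns were not set beside them. Their median widths were 353 bp in gained and 385 bp in lost promoters, against 921 bp in promoters called in all 4 libraries. The start site itself was covered by 95 of 169 gained (56.2%) and 128 of 253 lost regions (50.6%), and by 90.3% of those called in all 4 libraries. The centre lay more than 500 bp upstream in 55 gained (32.5%) and 91 lost regions (36.0%) against 9.28%. In the plot of distances, the share within 100 bp upstream of the start site was 29.0% in gained, 19.4% in lost and 30.7% in common promoters.

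**Figure D3:**
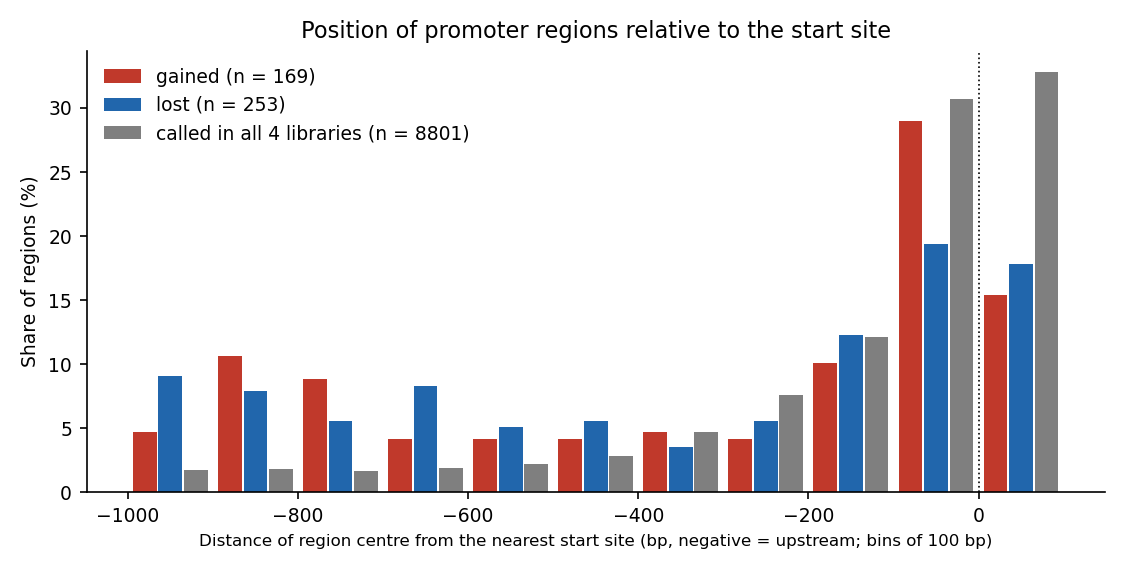
Share of regions (vertical axis, %) by distance of the region's centre from the nearest start site (horizontal axis, bp, bins of 100 bp, negative is upstream) for gained, lost and commonly called promoters. Bars of the gained and lost regions reach across the whole window, whereas 30.7% and 32.8% of the common regions fall in the bins next to the start site.

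At the edges of the window, *1810026B05Rik* lay inside at 997 bp upstream (percentiles 2.84 and 1.79) and *Emp3*, an epithelial membrane protein gene, lay outside at 1019 bp upstream (29.8 and 49.4) among regions with a gained call. Downstream, *Rin1*, a Ras effector, was inside at 92 bp (22.4 and 33.3) and the snoRNA gene *Gm25093* outside at 125 bp (11.8 and 30.7). For regions with a lost call, *Frrs1* was inside at 996 bp upstream (20.4 and 30.8) and the sense intronic gene *Gm47447* outside at 1004 bp (18.1 and 36.4), while the snRNA gene *Gm22107* was inside at 99 bp downstream (7.46 and 16.01) and the processed pseudogene *Gm15352* outside at 101 bp (45.1 and 48.7). Peak size did not follow the side of the edge in 1 direction, and a wider window of 2.5 kb on both sides held 468 gained and 920 lost regions.

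Words bound by macrophage factors were found at low and mostly similar rates in the 201 bp around the summits. AP-1 (TGACTCA) matched in 17 of 169 gained (10.1%, 6.38 to 15.5) and 9 of 253 lost regions (3.56%, 1.88 to 6.62), and in 4.99% of all promoter regions. Of the 17 gained regions, 2 were also repeat-rich. The TATA box (TATAAA) matched in 20 gained (11.8%, 7.79 to 17.6) and 16 lost regions (6.32%, 3.93 to 10.0), and in 4.35% of all. PU.1 (GAGGAAGT) matched 7.10% of gained and 7.11% of lost summits (4.86% of all), C/EBP (TTGCNNAA) in 10.1% and 9.49% (7.01% of all), and RUNX (AACCACA) in 7.69% and 5.14% (3.54% of all). The ISRE, the interferon-stimulated response element, matched in 6 gained (3.55%) and 8 lost regions (3.16%), beside 2.71% of all. GC boxes (GGGCGG) were in 16.6% of gained and 25.3% of lost regions but in 50.8% of all, CCAAT in 26.0% and 20.2% beside 32.6%, ETS (CCGGAAGT) in 0.592% and 0.791% beside 6.17%, and CRE (TGACGTCA) in 1.18% and 0.395% beside 2.74%. Base composition differed as well, with a median GC content in these windows of 49.8% in gained, 52.7% in lost and 62.2% in common promoters. These shares were not tested, and the part of base composition in them was not tested either.

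**Figure D4:**
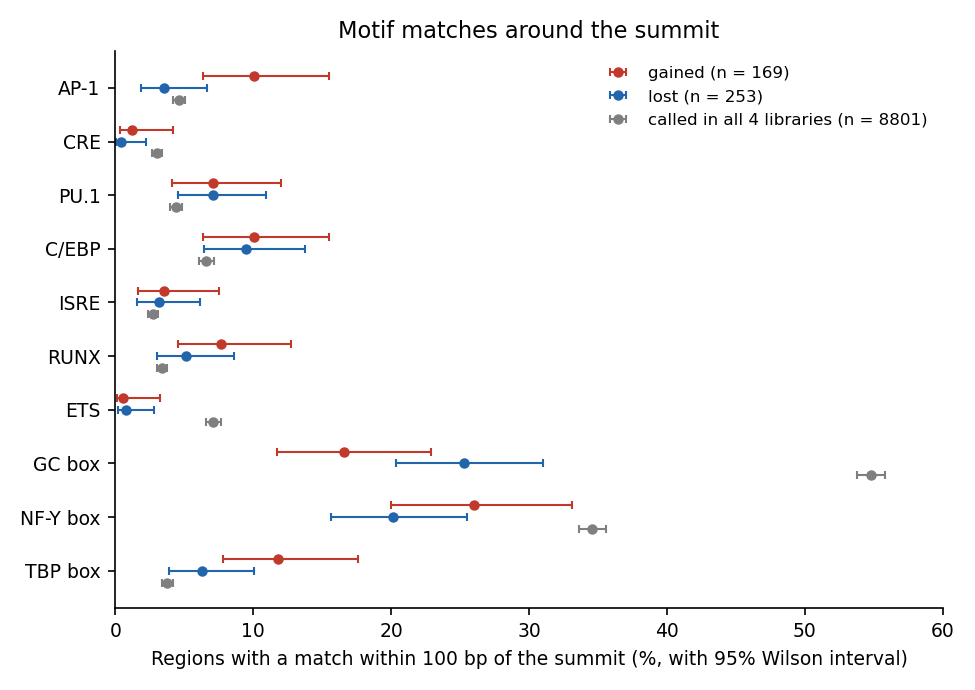
Share of regions (horizontal axis, %) with a match to each word within 100 bp of the summit, for gained (n = 169), lost (n = 253) and commonly called (n = 8801) promoters, with 95% Wilson intervals. NF-Y box stands for the CCAAT box and TBP box for the TATA box, and the gained regions have the higher AP-1 share (10.1% against 3.56% in lost).

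Interferon-stimulated genes were mostly open in both genotypes, but so were promoters in general. Of all promoter regions, 84.5% were called in all 4 libraries, counted as regions rather than genes. Of 99 genes of the interferon-stimulated list with an autosomal promoter region, 84 had one called in all 4 libraries, 9 had a gained promoter and 1 had a lost promoter. The gained share was thus 9.09%, beside 1.61% of all 11287 genes with a promoter region, and the lost share 1.01% beside 2.29%. The list was written with the study's interest in interferon genes known, and its count is a description. The 9 genes rested on 7 regions, because *Gbp4*, *Gbp8* and *Gbp9*, members of a family of interferon-inducible GTPases, shared 1 region (percentiles 32.4 and 28.9). These guanylate-binding protein genes are similar neighbours on chromosome 5, so the placement of reads between them is uncertain. *Gbp6*, of the same family, had percentiles of 20.3 and 21.0. *Ifi47*, another interferon-inducible GTPase, had percentiles of 30.6 and 53.9, while a further promoter of this gene was called in all 4 libraries. *Oas1g*, of the 2'-5' oligoadenylate synthetase family, had 29.1 and 28.5 with the ISRE printed above. *Ifi213*, a PYHIN-family gene, had 23.8 and 29.3 and also an ISRE match. *Trim21*, a cytosolic antibody receptor, had 31.0 and 45.3 in a region 869 bp upstream, and its other promoter was called in all 4 libraries. With *Oasl1*, these were the gained regions of the list, and *Oasl1* was the only region of the list above a percentile of 50 in both cKO libraries. *Ciita*, the activator of MHC class II genes, was lost with 30.05 and 36.9 in the WT replicates. All 9 genes were also gained with lists of equal length (13 in all). The list of cKO replicate 1 set that length, so a gained call could end almost only through a small peak in cKO replicate 2. This outcome was thus nearly fixed by the percentiles above and is no support. With a library left out, a region gained in the main run still meets the rule unless its merged outline changes. That all 9 stayed gained there (9 to 13 in all) was thus nearly fixed beforehand and is no support. When only peaks at or above the list's median area counted, 3 genes were gained, of which 1, *Oasl1*, was among the 9.

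Genes of macrophage identity fell on both sides. Of 30 genes of this list with a promoter region, 28 had one called in all 4 libraries. Of all promoter regions 84.5% were, a share of regions rather than genes. *Axl*, a TAM receptor for apoptotic cells, was gained with percentiles of 39.1 and 53.6 at 5 bp downstream of a start site. *Cd36*, a scavenger receptor for oxidised lipids, was gained with 9.33 and 24.5. *Mrc1*, the mannose receptor, was lost with 6.77 and 16.2. Both *Cd36* and *Mrc1* had another promoter that was called in all 4 libraries.

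Inflammatory cytokine and signalling genes were lost more often than gained, in 4 and 1 of 45 genes (8.89% and 2.22%, beside 2.29% and 1.61% of all genes). All 5 had small peaks. *Il27*, a cytokine of the IL-12 family, was lost with percentiles of 20.4 and 12.7 in the WT replicates. *Nos2*, the inducible nitric oxide synthase, was lost with 4.51 and 5.07, and *Ccl22*, a chemokine for CCR4, with 3.56 and 8.06. *Tlr1* and *Tlr6* are neighbouring genes that each pair with TLR2, and their promoters, 26.5 kb apart on chromosome 5, were called in opposite genotypes. *Tlr1* was lost with 12.7 and 10.1 in the WT replicates, and *Tlr6* was gained with 14.8 and 16.4 in the cKO replicates. With lists of equal length, *Il27* and *Tlr1* did not keep their lost calls, while *Tlr6* kept its gained call. The opposite calls of *Tlr1* and *Tlr6* thus did not hold there, and the lost count of 4 rested partly on list length.

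The other lists held few members, and with counts of 0 or 1 gene their shares say little beside those of all genes. Of 60 genes of cell cycle and replication, *Ccnd2*, encoding cyclin D2, was gained (20.5 and 39.2) and none was lost, a gained share of 1.67% beside 1.61% of all genes. Of 38 p53 target and DNA damage genes, *Trp53i11* was gained (2.63%) and none was lost. In the lipid and sterol list *Scd1*, the stearoyl-CoA desaturase, had 2 lost regions, centred 184 bp (6.03 and 29.5) and 730 bp upstream (10.1 and 21.6), and was the only lost gene of 27 (3.70%, beside 2.29% of all genes). None of the 22 genes of histones and H3.3 chaperones was gained or lost, and all 22 were called in all 4 libraries. Of all promoter regions 84.5% were, a share of regions rather than genes. Of marker genes of other cell types, *Cebpe*, a factor of granulocyte maturation, was lost (32.8 and 26.1) among 4 neutrophil genes with a promoter region (25%, beside 2.29% of all genes), and another of its promoters was called in all 4 libraries. No gene of the lymphocyte (5 with a promoter region), stromal (2) or dendritic (5) lists was gained or lost.

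**Figure D5:**
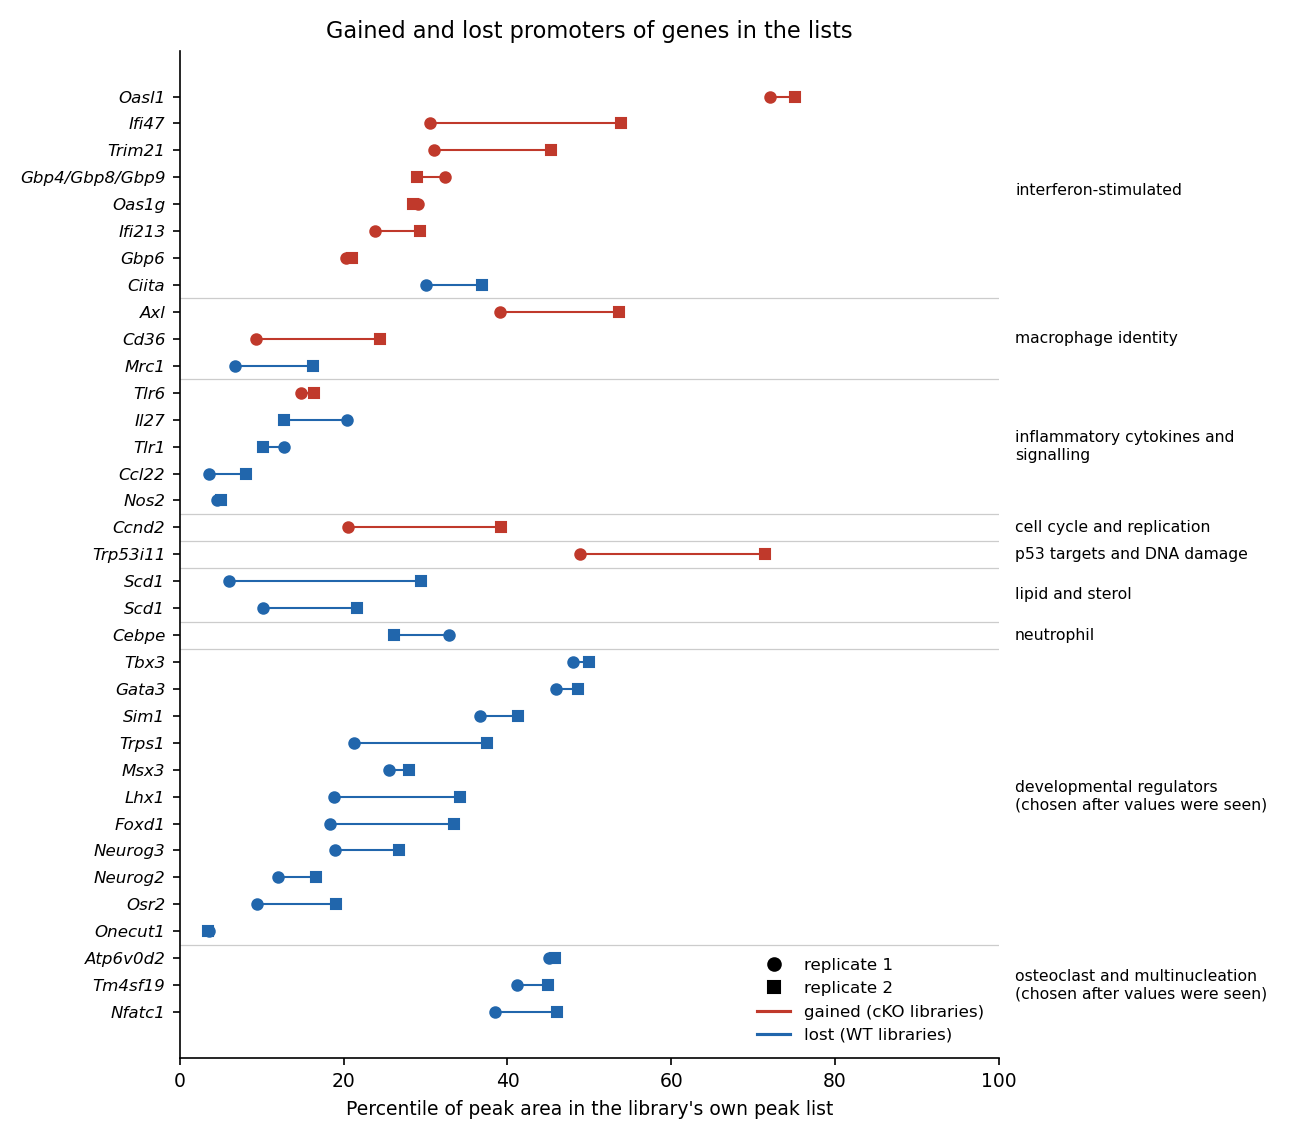
Percentile of the peak area (horizontal axis) in replicate 1 (circles) and replicate 2 (squares) for gained (red, cKO libraries) and lost (blue, WT libraries) promoters of genes in the lists that are named in the text. The interferon-stimulated regions are red except that of *Ciita*, and the lower lists of developmental and osteoclast genes, chosen for being lost, are blue throughout.

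Non-coding RNA genes made up most of the members that were not protein-coding. *Mir155*, a microRNA gene induced by inflammatory signals in macrophages, was gained with percentiles of 20.6 and 20.9. Its region was centred 788 bp upstream of the annotated start. Whether annotated starts of microRNA and other short RNA genes mark where their transcription begins was not determined. Other gained microRNA genes were *Mir3100* (29.7 and 48.8), which lay 10.1 kb from the gained *Dmwd* region, and *Mir3074-1* (1.60 and 40.1). The lost microRNA genes of highest rank were *Mir7670* (40.2 and 48.8), *Mir688* (36.4 and 42.4) and *Mir7011* (25.8 and 41.1). *Airn*, the antisense transcript that silences the imprinted *Igf2r* gene, was lost with 39.4 and 42.9, and *Sox6os*, antisense at *Sox6*, with 49.4 and 51.9. Among lincRNA genes below the top ranks, *Gm20109* (28.6 and 40.4), *Gm31108* (27.0 and 41.2) and *4930519L02Rik* (34.7 and 31.0) were gained. Short structural RNA genes were few and had small peaks. The gained snoRNA genes of highest rank were *Gm25345* (14.5 and 22.6), *Gm23484* (10.4 and 23.5) and *Gm25804* (9.20 and 17.4). Among lost ones *Rnu3b1*, a U3 snoRNA copy, had 21.2 and 17.2 and *Gm25364*, an snRNA gene, had 25.3 and 26.2.

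Processed pseudogenes besides *Gm4761* were led by *Gm49728* (45.0 and 45.9) in gained and *Gm29487* (43.7 and 50.4) and *Gm47273* (35.2 and 35.0) in lost promoters. *Gm10222*, an unprocessed pseudogene, was gained with 34.8 and 33.0, and copies like these share sequence with their parents, so the placement of reads is uncertain. Bidirectional lncRNA genes were led by *Gm5432* in gained promoters, which shares its promoter with *Trib2* (42.4 and 53.5), and *Gm49492* in lost promoters, which shares its promoter with *Pou6f1* (17.6 and 16.8). The gained *Tcrg-V7*, a T cell receptor gamma variable segment, had 4.61 and 23.1.

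Most members stood alone as regions of their gene in their direction. Another region in the gene body or within 10 kb was called in the same direction for 42 of 169 gained and 78 of 253 lost promoters, and in the opposite direction for 24 and 18. These counts, and those of other promoters and nearest regions below, were not made for all promoter regions. They are thus not shown to be particular to gained and lost promoters. *Dmwd* and *Dpy19l3* each had 4 gained regions and no lost region there. *Neurog2* had 3 lost regions, *Atp6v0d2* 3, *Cux1* 4 and *Dnmbp* 4, with no gained region. In large genes the calls went both ways, with 2 gained and 3 lost of 30 regions at *Mef2c*, a MADS-box factor, and 1 gained and 4 lost of 18 at *Rapgef5*, an exchange factor for Rap. *Frrs1*, *Mipol1*, *Ablim1* and *Rapgef5* had a gained and a lost promoter each. The 2 regions of *Frrs1* lay 0.9 kb apart and those of *Mipol1* 0.6 kb apart. Another promoter of the same gene was called in all 4 libraries for 25 gained and 53 lost promoters. The nearest region called in all 4 libraries lay at a median of 7890 bp from gained and 4681 bp from lost promoters, with 43 and 71 within 1 kb and 28 and 13 beyond 50 kb. Across the 19 autosomes, gained promoters made up between 0.488% (chromosome 4) and 2.63% (chromosome 1) of promoter regions and lost promoters between 1.27% (chromosome 2) and 4.01% (chromosome 9).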

How the data were processed

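ATAC-seq peak lists of 4 BMDM libraries (2 WT, 2 cKO) were used. According to the submitters' processing notes and the study's methods, the authors aligned paired-end reads to mm10 (Bowtie2 2.5.1) and ran Genrich on every library by itself with its defaults. The deposited peak area is a signal value, the summit value a −log10 p and the score a number capped at its limit, and only areas, positions and summits were used here. Lists are longer in replicate 2 and read depth is unknown, so an absent peak says only that no area above the limit of 200 was called. Intervals cover counting error only. Replicates were called biological by the labels.

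Peaks were merged and placed on start sites of the GENCODE vM21 basic annotation in Python 3.11.15 with pandas 2.3.3, scipy 1.17.1 and statsmodels 0.14.6. The nearest start site named the gene. CpG, repeat and motif content were read from the soft-masked mm10 genome. Shares were compared by Fisher's exact test, which was tried on simulated data, and library counts by an exact permutation test. Named genes were the 12 members per direction of highest mean percentile, list members, up to 3 per non-coding gene type, those at the window's edges and of lowest area, and up to 5 per direction with several regions. The members and the 11 gene lists were chosen with earlier results of these data known, and 2 further lists after values were seen. The authors' differential test needs reads and was not repeated. The X chromosome was left out, and 1 member of a list is not reported here.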

Additional observations from a re-analysis of the deposited data

How the results depend on the processing

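Lists of equal length gave 279 gained promoters, a window of 2.5 kb on both sides gave 468 gained and 920 lost, protein-coding start sites alone gave 98 gained and 157 lost, and the comprehensive annotation, chosen after seeing the data, gave 407 lost. With each library left out in turn, gained promoters ranged from 179 to 386 and lost promoters from 269 to 569, the highest being without cKO replicate 1 (386 gained) and without WT replicate 1 (569 lost). Without WT replicate 2 there were 340 gained, and without cKO replicate 2 there were 539 lost. In the runs that gave 386 and 569 fewer lists had to hold a peak, and in those that gave 340 and 539 fewer lists had to lack one.

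The protein-coding difference between gained and lost became significant by Fisher's exact test with the comprehensive annotation (-9.46 points, adjusted p = 0.0180) and ranged from -11.3 to -2.67 points with a library left out. The CpG-rich difference ranged from -11.97 to -0.711 points. Both were significant by the exact test without cKO replicate 2 (adjusted p = 0.00572 and 0.00455), and the cause was not tested. The repeat-rich difference ranged from 3.56 to 7.19 points with a library left out, was 1.77 points with peaks at or above the median area, 4.31 points with lists of equal length and -0.739 points with any soft-masked base, for which the cause was not tested.

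The difference in promoter regions per library, cKO minus WT, was -188 and turned to 55 with lists of equal length. It was 104 without WT replicate 2 and 114.5 without cKO replicate 1, in a range from -496 to 114.5. With the replicate block the mean difference was -188, since each same-numbered pair differed by -188, and the labels give no shared origin of same-numbered samples. Gained interferon-stimulated genes, recounted after seeing the data, numbered 3 with peaks at or above the median area, 18 with the 2.5 kb window and 9 to 13 with a library left out. Read depth was unknown, so small peaks near the calling limit set the limit of what these lists can show.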

Other observations

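Promoters of developmental transcription factors were seen among the lost regions, and 11 of them were put in a list after their values were seen, so that all 11 are lost by construction and the count supports nothing. *Tbx3*, a T-box factor of limb and heart development, had percentiles of 48.0 and 49.9 in the WT replicates. *Gata3*, which directs T cell and other lineages, had 46.0 and 48.6, and *Sim1*, a factor of hypothalamic neurons, had 36.6 and 41.3. *Trps1* (21.2 and 37.5), *Msx3* (25.5 and 27.9), *Lhx1* (18.8 and 34.2) and *Foxd1* (18.3 and 33.5) had smaller peaks, as did the proneural genes *Neurog3* (18.9 and 26.8) and *Neurog2* (11.98 and 16.7). *Osr2* (9.38 and 19.05) and *Onecut1* (3.52 and 3.48) had the smallest. *Gata3* and *Trps1* had another promoter called in all 4 libraries.

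A second list of 3 lost promoters, also chosen after the values were seen, held genes of osteoclasts and cell fusion. *Atp6v0d2*, a subunit of the osteoclast proton pump, had percentiles of 45.0 and 45.8 in the WT replicates. *Tm4sf19*, a tetraspanin-like gene, had 41.1 and 45.0, and *Nfatc1*, the main transcription factor of osteoclast formation, had 38.5 and 46.0. The regions of *Atp6v0d2* and *Tm4sf19* held an AP-1 match, which 9 of the 253 lost regions did.

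On the X chromosome, which was left out of the counts, 4 promoters were gained and 4 were lost. Gained were *Mir5617* (0.564 and 12.2), *Gpr119* (4.19 and 18.7), *A630012P03Rik* (18.5 and 32.8) and *Tmem29* (28.5 and 36.5), with percentiles in the cKO replicates. Lost were *Gm28730* (7.98 and 14.6), *Arhgef6* (40.5 and 42.6), *Gm27987* (0.391 and 28.3) and *Adgrg2* (23.0 and 42.9), with percentiles in the WT replicates.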
